A study of Arabidopsis with 36 samples.

Results

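chl1-5 is an Arabidopsis mutant of the nitrate transporter NRT1.1 (AT1G12110). The comparison of its roots with Col-0 roots at 21 °C asks which transcripts differ in this mutant at the standard temperature. The members were chosen by label, as the 3 root libraries of chl1-5 and the 3 root libraries of Col-0 at 21 °C, which are 6 of the 36 libraries of the series. Seedlings of both genotypes had grown for 4 days at 21 °C and for 5 more days at the same temperature, and each root replicate was a pool of around 50 roots. The remaining libraries came from hy5-215, a mutant of the transcription factor HY5, from roots moved to 28 °C for those last 5 days, and from shoots. The labels name no transgene, and chl1-5 was represented by a single allele.

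NRT1.1 (also named CHL1 and NPF6.3) is a plasma membrane protein that carries nitrate across the root surface and also acts as a nitrate sensor. Its signal reaches transcription factors that switch on genes for nitrate uptake and reduction, and its transport of auxin is known to affect lateral root growth. The kinase CIPK23, together with the calcium sensor CBL9, phosphorylates it and changes its affinity for nitrate. chl1-5 carries a deletion at the locus.

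The 6 libraries held 68.8 to 84.9 M reads on genes, and replicates of one group correlated at 0.994 to 0.997 across genes on the log2 scale. Of all reads on genes, 3.73% to 3.79% fell on the 10 most highly expressed genes in Col-0 and 4.15% to 4.55% in chl1-5. Levels are RPKM, which scales reads by gene length and library total. Differences are log2 fold changes of chl1-5 over Col-0 on the log2(RPKM + 1) scale, which understates the change of genes with low levels. They are given with limma's standard error (SE) and its p adjusted by the Benjamini-Hochberg method over all genes tested, and a gene was called at an adjusted p under 0.05. The study describes the replicate pools of a group as independent of each other. In roots, the SE and p-values rest on the spread between 3 such pools in each of 6 root groups. These groups hold all 18 root libraries, so libraries outside the comparison also enter the SE of each gene.

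The targeted gene was looked at first, since it checks the labels. In Col-0 roots, NRT1.1 was covered by 22319, 25062 and 29013 reads, which are 70.9, 78.2 and 78.0 RPKM. In chl1-5 roots, it was covered by 1, 0 and 0 reads. The pooled reads of Col-0 exceeded those of chl1-5 by a ratio of 73203 per sequenced read, with an exact 95% interval for counting error of 13138 to 2891390. The libraries of both groups did not overlap, and the log2 fold change was -6.26 (SE 0.12, adjusted p = 1.4e-14).

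The loss was not limited to NRT1.1. ELP (AT1G12090), named for an extensin-like protein and located on chromosome 1 with a single annotated gene between it and NRT1.1, had 12804, 13574 and 16012 reads in Col-0 and 0, 2 and 2 reads in chl1-5. Its log2 fold change of -7.26 (SE 0.19, adjusted p = 3.5e-13) was the lowest among the 17742 genes tested. AT1G12100, the gene between both, had 5, 12 and 17 reads in Col-0 and none in the 3 chl1-5 libraries. It was too low to be tested. Its Col-0 sum was 34 reads, and 0 reads over the chl1-5 group allow at most 3. On the far side of ELP, AT1G12080 was at 283, 305 and 344 RPKM in Col-0 and at 225, 214 and 220 RPKM in chl1-5 (log2 fold change -0.49, SE 0.08, adjusted p = 0.00074). On the other side of NRT1.1, AT1G12120 did not pass the test, with 27.004 ± 1.05 RPKM in Col-0 and 28.7 ± 1.63 RPKM in chl1-5 (SD, n = 3 each). ELP, AT1G12100 and NRT1.1, which follow each other on the chromosome, thus had at most 2 reads in any chl1-5 root library at 21 °C. For all other genes below, an effect of losing NRT1.1 cannot be told apart from one of losing ELP or AT1G12100 with this single allele.

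**Figure D1:**
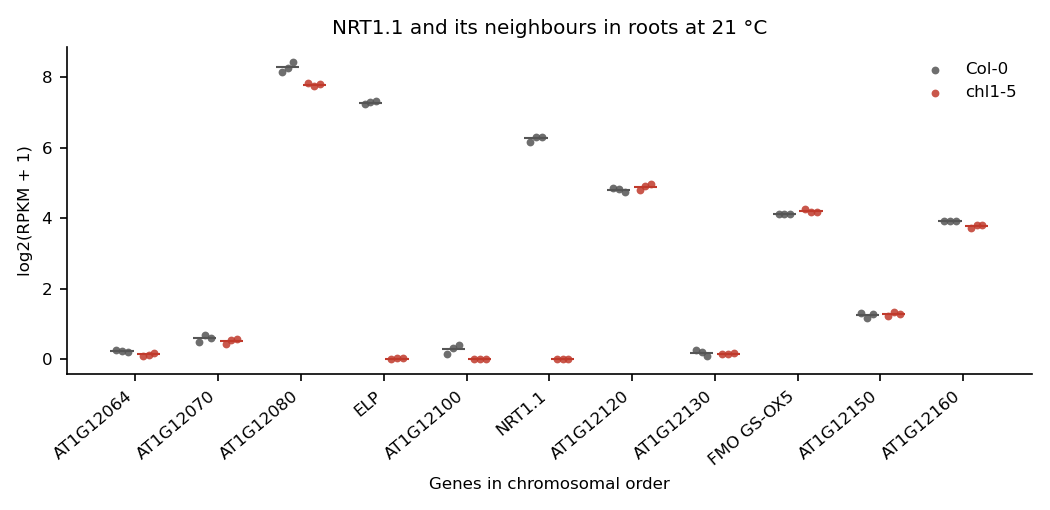
Level of NRT1.1 and its 5 annotated neighbours on each side in roots at 21 °C, as log2(RPKM + 1), with 1 point per library and a line at the mean of 3 libraries for Col-0 (grey) and chl1-5 (red). ELP, AT1G12100 and NRT1.1 sit at or next to 0 in chl1-5, while AT1G12080 and AT1G12120 on both sides are present in each genotype.

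The same genes were followed in the other libraries, since these check the label of the mutant. In chl1-5 roots at 28 °C, NRT1.1 had 4, 0 and 2 reads, and ELP had 113, 4 and 4 reads. ELP was also nearly absent from chl1-5 shoots at 21 °C, with 4, 2 and 3 reads against at least 51871 reads in each Col-0 shoot library. NRT1.1, in contrast, was read in chl1-5 shoots, with 4311, 3831 and 3715 reads at 21 °C against 6650, 6301 and 6192 in Col-0 shoots. At 28 °C, the chl1-5 shoots had 5351, 6111 and 6485 reads of NRT1.1 and the Col-0 shoots 2308, 2428 and 1924. AT1G12100 had 0 reads in each chl1-5 shoot library, against 102, 83 and 110 reads in Col-0 shoots at 21 °C and 65, 86 and 43 at 28 °C. ELP and AT1G12100 were thus absent or nearly absent in both organs labelled chl1-5. The genotype effect on NRT1.1 differed between the organs, with the log2 fold change of chl1-5 over Col-0 higher by 5.88 in shoots than in roots in a fit of all 36 libraries (adjusted p = 2.3e-23). The shoot libraries labelled chl1-5 therefore match that label in ELP and AT1G12100 but hold reads of NRT1.1. The source of these reads was not tested, and the shoot values are given below as those of the libraries so labelled.

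**Figure D2:**
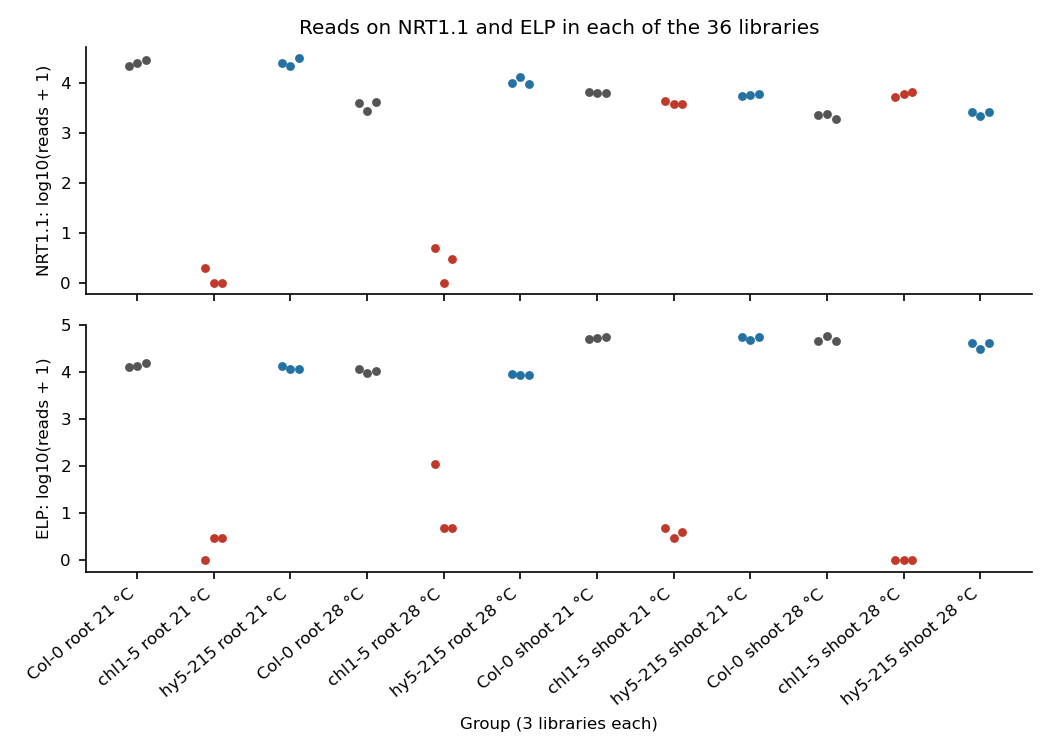
Reads on NRT1.1 (top) and ELP (bottom) as log10(reads + 1) in each of 36 libraries, grouped by genotype, organ and temperature, with Col-0 in grey, chl1-5 in red and hy5-215 in blue. In chl1-5, NRT1.1 is at 0 to 4 reads in roots and at 3715 to 6485 reads in shoots, and ELP is at 0 to 113 reads throughout.

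Across the transcriptome, 5021 of the 17742 genes tested were called in roots at 21 °C. Of these, 2941 were higher in chl1-5 (16.6% of the genes tested) and 2080 were lower (11.7%). Most of the differences were small. The log2 fold change was under 0.5 in size for 87.4% of the called genes, and its median was 0.28 for genes called higher and -0.19 for genes called lower. With a log2 fold change above 1 in size also required, 99 genes were called (0.558%), 60 of them higher and 39 lower. The libraries of both genotypes did not overlap for 96.9% of the called genes and for 45.5% of all genes tested. The 60 and 39 genes make up 0.338% and 0.22% of the genes tested. Chromosomes 1 to 5 held 26, 16, 21, 18 and 18 of the 99 genes. The split into higher and lower depends on the scaling, since quantile normalization called 2309 genes higher and 3023 lower. Without chl1-5 replicate 1, 3232 genes were called.

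Among called genes that averaged 5 RPKM or more and did not overlap between genotypes, the 12 largest increases included genes of membrane transport. ALMT1, a malate channel through which roots release malate, was at 1.59, 1.8004 and 2.27 RPKM in Col-0 and at 14.5, 10.6 and 10.02 RPKM in chl1-5. Each chl1-5 library lay well above each Col-0 library, and the log2 fold change was 2.13 (SE 0.12, adjusted p = 1.0e-08). CHX17, a cation/H+ antiporter linked to potassium, rose from 7.91, 8.83 and 9.22 RPKM to 25.9, 28.07 and 30.9 RPKM (log2 fold change 1.6004, adjusted p = 6.1e-08). DUR3, the high-affinity transporter for urea, rose from 3.55, 3.00 and 2.605 RPKM to 10.5, 11.3 and 10.1 RPKM (log2 fold change 1.53, adjusted p = 1.0e-08).

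Other large increases had a wider spread. RCI2B, a small membrane protein of the cold and salt response, was at 22.6, 31.05 and 38.3 RPKM in Col-0 and at 181, 83.6 and 89.5 RPKM in chl1-5 (log2 fold change 1.85, adjusted p = 0.00069). Replicate 1 of chl1-5 was the highest library for RCI2B, and also for the lectin JAL22, at 313 RPKM against 172 and 208 RPKM in the other two and 74.1 to 128 RPKM in Col-0. AT5G38000 and AT5G36130 had the same replicate on top, at 22.2 and 13.4 RPKM. XTH24, an enzyme that remodels xyloglucan in the cell wall, rose from 39.0 to 46.5 RPKM in Col-0 to 94.2 to 109 RPKM in chl1-5 (log2 fold change 1.27, adjusted p = 0.00016). The cytochrome b5 CB5-C, the glycine-rich protein GRP5 and the genes AT1G75945 and AT4G39795 made up the rest of the 12 largest increases, with log2 fold changes of 1.304, 1.63, 1.84 and 1.68.

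Among the decreases, ELP and NRT1.1 were followed by genes that have no symbol in the reference. AT5G33355 fell from 62.1, 69.4 and 72.8 RPKM in Col-0 to 7.99, 5.58 and 8.82 RPKM in chl1-5 (log2 fold change -3.05, SE 0.23, adjusted p = 3.1e-07). AT3G59930 fell from 117, 129 and 118 RPKM to 26.6, 20.5 and 18.8 RPKM (log2 fold change -2.43, adjusted p = 3.8e-09). OSM34, an osmotin-like protein, fell from 19.8, 19.7 and 22.6 RPKM to 3.56, 3.88 and 3.85 RPKM (log2 fold change -2.18, adjusted p = 1.1e-07). In each of these 3 genes, the highest chl1-5 library was well under the lowest Col-0 library. In hy5-215 roots at 21 °C, measured against the same Col-0 libraries, the 3 genes stood on the other side of Col-0, at 955 ± 65.2, 672 ± 42.6 and 123 ± 2.44 RPKM (SD, n = 3 each). AT1G75945, which was higher in chl1-5 at 13.6 ± 1.32 RPKM, was at 0.0269 ± 0.0101 RPKM in hy5-215 and at 3.06 ± 0.135 RPKM in Col-0 (SD, n = 3 each). The side on which hy5-215 stood varied among the other genes with large changes. ALMT1 and GRP5, higher in chl1-5, were also higher in hy5-215. Their means were 6.62 and 35.4 RPKM in hy5-215 and 1.89 and 7.32 RPKM in Col-0. CHX17 and DUR3, higher in chl1-5 too, were lower in hy5-215. Their means were 4.02 and 1.19 RPKM in hy5-215 and 8.66 and 3.05 RPKM in Col-0. These hy5-215 values stand beside the others as values, without a test.

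Several of the remaining decreases were enzymes. ERD5, the proline dehydrogenase of mitochondria, fell from 70.9, 57.4 and 62.4 RPKM to 16.7, 19.8 and 27.5 RPKM (log2 fold change -1.56, adjusted p = 0.00084). MIOX2, an inositol oxygenase, fell from 10.2 ± 1.54 to 3.09 ± 0.375 RPKM (SD, n = 3 per group, log2 fold change -1.44, limma adjusted p = 0.00036). GAT1_2.1, which encodes a glutamine amidotransferase-like protein, fell from 40.3, 37.4 and 38.5 RPKM to 10.2, 14.97 and 19.3 RPKM (log2 fold change -1.37, adjusted p = 0.00037). AT5G35940, AT2G22122, AT4G39675 and AT1G30730 completed the 12 largest decreases, with log2 fold changes of -1.98, -1.70, -1.66 and -1.31. BOR1, which exports boron into the xylem, and DIN10, a gene known to rise in darkness, were picked after their values were seen. BOR1 was at 21.24 to 22.4 RPKM in Col-0 and at 7.46 to 9.90 RPKM in chl1-5 (log2 fold change -1.23, adjusted p = 2.2e-08). DIN10 was at 97.5 to 110 RPKM and at 33.04 to 52.2 RPKM (log2 fold change -1.27, adjusted p = 0.00070).

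**Figure D3:**
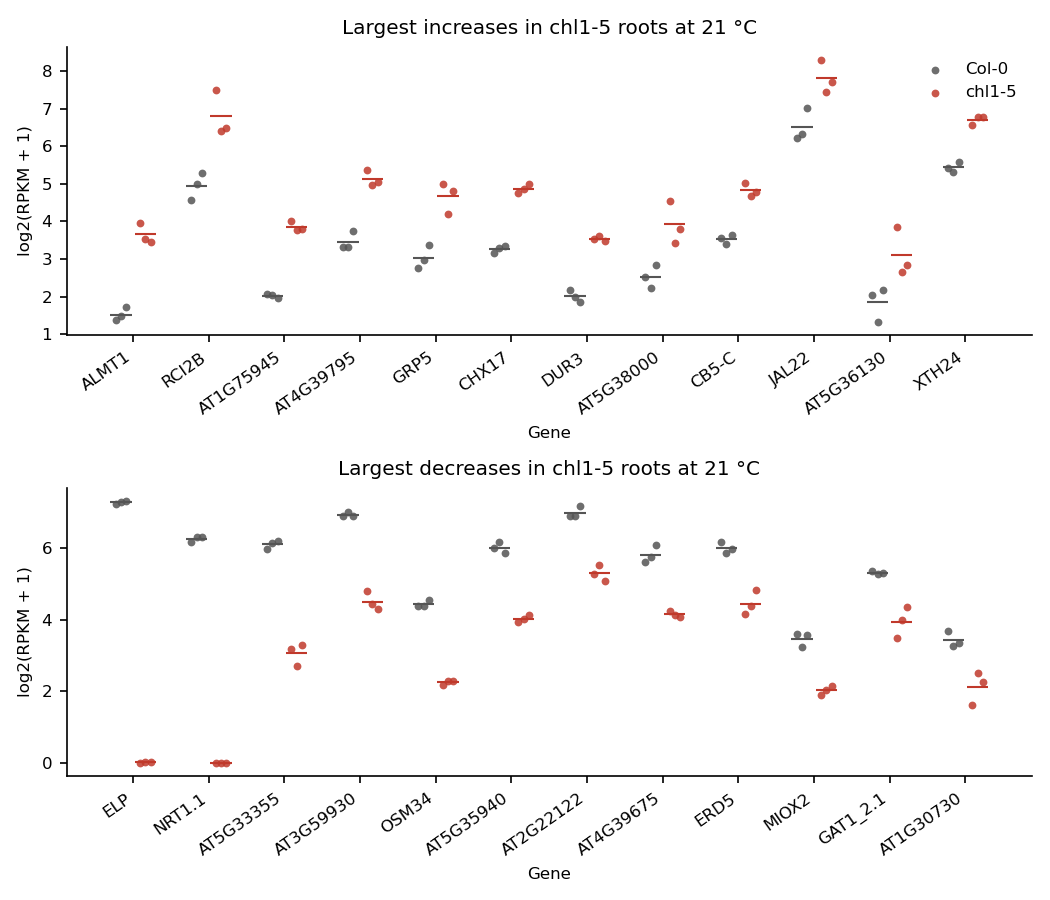
Levels of the 12 genes with the largest increases (top) and the 12 with the largest decreases (bottom) in chl1-5 roots at 21 °C, as log2(RPKM + 1), with 1 point per library and a line at the mean of 3 libraries for Col-0 (grey) and chl1-5 (red). The libraries of both genotypes do not overlap in these genes, which the naming rule required, and replicate 1 of chl1-5 is the highest in RCI2B and JAL22.

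Of the genes for nitrate transport, 14 passed the filter on low values, of which 4, NRT1.1 among them, were lower in chl1-5, none was higher and 10 did not pass the test. The share of 28.6% lower stands beside 11.7% of all genes tested. NRT1.8, which removes nitrate from the xylem, was at 1.55, 1.197 and 0.922 RPKM in Col-0 and at 0.178, 0.240 and 0.130 RPKM in chl1-5 (log2 fold change -0.90, adjusted p = 0.012). SLAH1, an anion channel subunit, and NRT1.12 were lower by smaller amounts (log2 fold changes -0.35 and -0.22). NRT1.5, which loads nitrate into the xylem, was at 281 ± 25.8 RPKM in Col-0 and 270 ± 50.1 RPKM in chl1-5 (SD, n = 3 each), and NRT1.2 was at 24.3 ± 1.73 and 27.4 ± 1.13 RPKM (SD, n = 3 each). NRT2.1, the main high-affinity nitrate transporter, was under the filter. It stood at 0.943, 0.576 and 0.410 RPKM in Col-0 and at 2.105, 4.18 and 2.73 RPKM in chl1-5, without overlap and with at least 80 reads in each library, and passed the test when no filter was applied (log2 fold change 1.27, adjusted p = 6.1e-05). The remaining 7 members under the filter included NRT1.7, at 0.610 to 1.04 RPKM in Col-0 and 0.790 to 1.86 RPKM in chl1-5. The call of NRT1.8 was lost without Col-0 replicate 1, and that of SLAH1 without Col-0 replicate 2 or chl1-5 replicate 1. The count of none higher became 1 with quantile normalization, a filter at 5 RPKM or a replicate block. It also became 1 without Col-0 replicate 1 or chl1-5 replicate 2.

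Of 9 genes of nitrate reduction tested, 2 were higher (22.2%, beside 16.6% of all genes tested) and none was lower. RFNR2, a root ferredoxin reductase that feeds nitrite reduction, rose from 90.9, 91.9 and 103 RPKM to 112, 141 and 132 RPKM (log2 fold change 0.42, adjusted p = 0.0098). UPM1, which makes the siroheme of nitrite reductase, rose from 28.98 ± 0.433 to 34.1 ± 3.56 RPKM (SD, n = 3 per group, log2 fold change 0.22, limma adjusted p = 0.012), a call lost without chl1-5 replicate 2, and no other gene of the list was called. The nitrate reductase NIA1 was at 12.8, 13.7 and 19.7 RPKM in Col-0 and at 23.998, 20.6 and 21.0 RPKM in chl1-5. These libraries did not overlap, but the difference did not pass the test (log2 fold change 0.50, SE 0.27, adjusted p = 0.19). NIA2 (53.0 and 49.5 RPKM) and the nitrite reductase NIR1 (90.8 and 92.6 RPKM) did not pass it either.

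In the nitrate signalling list, 6 of 20 tested genes were higher and 4 were lower, which is 30% and 20% beside 16.6% and 11.7% of all genes tested. BT2 and BT1, scaffold proteins with a BTB domain that respond to nitrate and sugar, were the most reduced. BT2 fell from 35.9, 32.1 and 41.8 RPKM to 16.4, 17.02 and 19.2 RPKM (log2 fold change -1.01, SE 0.09, adjusted p = 2.8e-06), and BT1 from 14.5, 9.70 and 12.6 RPKM to 5.48, 6.78 and 6.41 RPKM (log2 fold change -0.87, adjusted p = 8.7e-05). LBD39, a repressor of nitrate-responsive genes, fell from 49.6, 42.8 and 45.5 RPKM to 25.3, 29.5 and 27.6 RPKM (log2 fold change -0.72, adjusted p = 5.3e-05). Its relative LBD37 did not pass the test, with 62.9 ± 4.04 RPKM in Col-0 and 59.3 ± 3.79 RPKM in chl1-5 (SD, n = 3 each). The partners of NRT1.1 stood higher. CBL9 rose from 9.48, 9.75 and 9.70 RPKM to 13.3, 13.7 and 14.4 RPKM (log2 fold change 0.47, adjusted p = 3.6e-06), and CIPK23 rose from 40.1 ± 1.77 to 48.8 ± 0.670 RPKM (SD, n = 3 per group, log2 fold change 0.28, limma adjusted p = 6.1e-05). TGA1, a transcription factor of the nitrate response, rose from 74.8 ± 0.867 to 92.7 ± 3.05 RPKM (SD, n = 3 per group, log2 fold change 0.31). NLP7, the factor that binds nitrate and starts the response, had the same mean of 15.9 RPKM in both genotypes. The repressor HRS1 was lower (log2 fold change -0.53), a call lost without any one of Col-0 replicates 1 and 3 and chl1-5 replicates 1, 2 and 3.

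Among 16 tested genes of ammonium and amide metabolism, 4 were lower and none was higher, so that 25% were lower beside 11.7% of all genes tested. ASN1, the asparagine synthetase that is known to rise in darkness and under low sugar, was at 4.50, 1.54 and 2.89 RPKM in Col-0 and at 0.0243, 0.0279 and 0.0774 RPKM in chl1-5. Its chl1-5 libraries held at least 6 reads each, and the log2 fold change was -1.86 (SE 0.40, adjusted p = 0.0030). The other asparagine synthetases, ASN2 and ASN3, fell by 0.14 and 0.16 on the log2 scale, and GLN1;3, a glutamine synthetase, fell by 0.14. The calls of ASN2 and GLN1;3 were lost without Col-0 replicate 2, and that of GLN1;3 also without chl1-5 replicate 1. The list had 2 lower genes without Col-0 replicate 2 and 7 without chl1-5 replicate 2.

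Of 20 phosphate genes tested, 5 were higher and 4 were lower, or 25% and 20% beside 16.6% and 11.7% of all genes tested. The 4 lower genes belong to the PHT1 and PHO1 families of phosphate transporters. PHT1;1, which takes phosphate up from the soil, fell from 81.6, 66.8 and 65.0 RPKM to 38.6, 52.6 and 40.4 RPKM (log2 fold change -0.69, adjusted p = 0.00014). PHT1;4, of the same family, fell from 12.8 ± 0.652 to 9.05 ± 0.752 RPKM (SD, n = 3 per group, log2 fold change -0.45, limma adjusted p = 0.0058). PHO1, which exports phosphate to the xylem, was at 55.6, 60.2 and 50.2 RPKM in Col-0 and at 36.7, 50.0 and 46.9 RPKM in chl1-5 (log2 fold change -0.31, adjusted p = 0.021), and PHO1;H1 fell from 2.703 ± 0.334 to 1.61 ± 0.152 RPKM (SD, n = 3 each). The higher genes included NPC4, a phospholipase of phosphate starvation (log2 fold change 0.49), the acid phosphatase PAP17 (0.35) and SPX1, a sensor protein of phosphate status (0.34). PHT1;8 and the non-coding RNA IPS1 were under the filter. IPS1 stood at 0.128, 0.202 and 0.130 RPKM in Col-0 and at 0.510, 0.4399 and 0.385 RPKM in chl1-5, with as few as 5 reads in a library, and passed the test without the filter (log2 fold change 0.32, adjusted p = 0.0057). PHT1;8 was under 0.12 RPKM in each library. The PHO1 call was lost without Col-0 replicate 1, Col-0 replicate 2 or chl1-5 replicate 1, that of PAP17 without Col-0 replicate 1, and that of SPX1 without any one of the 6 libraries. The count of 5 higher became 3 without any one of Col-0 replicates 1 and 2 and chl1-5 replicates 1, 2 and 3.

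In the list of iron and nicotianamine genes, members of iron uptake were lower in chl1-5. Of 26 tested genes, 11 were lower and 4 were higher, against backgrounds of 11.7% and 16.6%, and the median log2 fold change was -0.21 against 0.010 over all genes tested. FRO2, which reduces iron at the root surface, fell from 20.3, 20.9 and 18.1 RPKM to 9.80, 9.26 and 6.77 RPKM (log2 fold change -1.12, adjusted p = 0.0012). CYP82C4, which modifies iron-mobilizing coumarins, fell from 18.8, 14.7 and 12.4 RPKM to 6.85, 7.35 and 4.66 RPKM (log2 fold change -1.16, adjusted p = 0.0012). IRT1, the iron importer, was at 111, 107 and 101 RPKM and at 69.0, 58.5 and 43.5 RPKM (log2 fold change -0.91, adjusted p = 0.0065). The regulator FIT and its partners BHLH38, BHLH39 and BHLH100 were lower too, with log2 fold changes of -0.45, -0.82, -0.63 and -0.80. In the opposite direction, FER1, a ferritin that stores iron, rose from 89.9, 97.0 and 79.6 RPKM to 158, 206 and 205 RPKM (log2 fold change 1.08, adjusted p = 0.00019). NAS1 and NAS2, which make the iron chelator nicotianamine, were higher (0.74 and 1.01), whereas NAS4 of the same family fell from 3.03, 2.82 and 1.53 RPKM to 0.514, 1.00 and 0.790 RPKM (log2 fold change -0.95, adjusted p = 0.00025). IRT1, FIT, BHLH38, BHLH39, BHLH100 and NAS1 fall outside the naming rule and were picked after their values were seen. The call of NAS2 was lost without Col-0 replicate 2, Col-0 replicate 3 or chl1-5 replicate 1, and that of BHLH100 without chl1-5 replicate 3. The list had 7 lower genes without that library.

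Aliphatic glucosinolate synthesis, which makes sulfur-rich defence compounds from methionine, had the largest median of the lists. Of 12 genes with values, 8 passed the filter and these 8 were higher, against a background of 16.6%, with a median log2 fold change of 1.16. The other 4, CYP79F1, FMOGS-OX1, MYB29 and MYB76, lay at or under 0.21 RPKM in each library, so the count does not cover the pathway. The filter averages all 18 root libraries, the chl1-5 libraries compared here among them. A gene of low level thus passes it more easily when it is higher in chl1-5. The part of this in the count was not tested. BCAT4, which starts the pathway by removing the amino group of methionine, rose from 1.72, 0.894 and 0.892 RPKM to 5.96, 7.40 and 6.57 RPKM (log2 fold change 1.84, SE 0.14, adjusted p = 5.4e-07). The chain-elongating enzymes MAM1 and MAM3 followed. MAM1 was at 1.79, 1.06 and 0.779 RPKM in Col-0 and at 3.57, 4.81 and 4.13 RPKM in chl1-5, and MAM3 at 18.4, 10.2 and 9.86 RPKM and at 27.9, 35.5 and 28.12 RPKM (log2 fold changes 1.24 and 1.23). The cytochromes P450 of the core pathway, CYP83A1 and CYP79F2, rose by 1.23 and 1.09 on the log2 scale. The sulfotransferases SOT17 and SOT18 (0.95 and 0.64) and the regulator MYB28 (0.46) were named after their values were seen. Col-0 replicate 1 was the highest of the Col-0 libraries in BCAT4, MAM1, MAM3, CYP83A1 and CYP79F2, and it stayed under the lowest chl1-5 library in each. MAM1 with MAM3 and SOT17 with SOT18 are close relatives, and the sharing of reads between such copies was not tested.

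Indolic glucosinolates, made from tryptophan, showed smaller increases, with 8 of 12 tested genes higher, against a background of 16.6%, and none lower (median log2 fold change 0.43). SOT16 rose from 116, 119 and 121 RPKM to 243, 197 and 218 RPKM (log2 fold change 0.88, adjusted p = 2.7e-05). CYP83B1 rose from 161 ± 11.003 to 248 ± 9.63 RPKM (SD, n = 3 per group, log2 fold change 0.62, limma adjusted p = 7.5e-05), and CYP79B2 by 0.54. PYK10, the abundant beta-glucosidase of root ER bodies, was at 2532, 2421 and 2425 RPKM in Col-0 and at 3622, 3312 and 3299 RPKM in chl1-5. Its log2 fold change was 0.47 (adjusted p = 0.0038), and it became -0.048 with quantile normalization, which forces the most abundant genes to equal values.

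Aquaporins are the channels that let water cross root membranes. Of 20 tested genes, 10 were lower and none was higher, against a background of 11.7%, with a median log2 fold change of -0.18. PIP2;3 fell from 123, 144 and 159 RPKM to 87.7, 82.0 and 83.4 RPKM (log2 fold change -0.74, adjusted p = 1.2e-05). PIP2;1 fell from 698, 758 and 774 RPKM to 527, 578 and 533 RPKM (log2 fold change -0.44, adjusted p = 1.5e-05). PIP1;3, PIP1;2 and the vacuolar TIP1;1 fell by 0.38, 0.33 and 0.35 on the log2 scale. The summed level of the 20 genes was 7442 to 8500 RPKM in Col-0 and 6400 to 6754 RPKM in chl1-5. PIP genes are close in sequence, and the share of reads that could belong to another copy was not tested. The count of 10 was 6 without Col-0 replicate 3 or chl1-5 replicate 3.

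Suberin, the waxy polymer that seals the endodermis, had 8 of 19 tested genes higher, against a background of 16.6%, and none lower, with a median log2 fold change of 0.29. FAR1, a fatty acyl reductase that makes suberin alcohols, rose from 3.54, 3.02 and 3.98 RPKM to 6.66, 4.31 and 5.48 RPKM (log2 fold change 0.51, adjusted p = 0.0052). ABCG20, a transporter of suberin precursors, rose from 21.7, 21.0 and 19.2 RPKM to 27.6, 28.22 and 27.3 RPKM (log2 fold change 0.41, adjusted p = 0.0071). KCS2, which elongates their fatty acids, rose by 0.41, a call lost without Col-0 replicate 1. The count of 8 was 5 without any one of Col-0 replicates 1 and 3 and chl1-5 replicate 2, and 13 in a fit on the 6 libraries alone. In the Casparian strip list, 1 of 8 tested genes was higher (12.5%, under the 16.6% of all genes tested) and none was lower, with a median of -0.007. The called gene was CASP2, and its call was lost without Col-0 replicate 2, Col-0 replicate 3 or chl1-5 replicate 2.

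In the cytokinin list, 3 of 13 tested genes were higher and 1 was lower, or 23.1% and 7.69% beside 16.6% and 11.7% of all genes tested. The response regulators ARR5 and ARR16, which cytokinin is known to raise, increased. ARR5 rose from 5.61, 6.42 and 6.79 RPKM to 17.9, 12.5 and 11.8 RPKM (log2 fold change 1.03, adjusted p = 0.0015), and ARR16 by 0.54. IPT3, a cytokinin synthesis gene known to respond to nitrate, fell from 7.38, 5.64 and 5.80 RPKM to 3.82, 4.69 and 3.69 RPKM (log2 fold change -0.52, adjusted p = 0.00042). In the auxin list, 3 of 31 tested genes were higher and 4 were lower, with a median of -0.006. These shares of 9.68% and 12.9% lie under and near the 16.6% and 11.7% of all genes tested. GH3.2, which conjugates auxin, fell from 15.4, 19.3 and 17.7 RPKM to 8.35, 10.3 and 10.1 RPKM (log2 fold change -0.80, adjusted p = 6.7e-05). TAA1 and YUC5, enzymes of auxin synthesis, moved in opposite directions, by -0.34 and 0.38. The efflux carriers did as well, PIN2 by -0.29 and PIN7 by 0.27. PILS6, an auxin carrier of the endoplasmic reticulum, was higher by 0.15 (adjusted p = 0.013), a call lost without chl1-5 replicate 1 or replicate 3.

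In the drought and abscisic acid list, 6 of 14 tested genes were higher and 2 were lower, ERD5 and RD29B, against backgrounds of 16.6% and 11.7%. The count of 6 was 2 without Col-0 replicate 1 or chl1-5 replicate 3 and in a fit on the 6 libraries alone, and that of 2 was 1 without Col-0 replicate 2, Col-0 replicate 3 or chl1-5 replicate 1. The homeodomain factors HB-7 and HB-12, which abscisic acid is known to raise, had the highest fold changes of the list. HB-7 was at 12.2, 16.8 and 19.8 RPKM in Col-0 and at 39.1, 34.3 and 44.0 RPKM in chl1-5 (log2 fold change 1.24, adjusted p = 1.6e-05), and HB-12 rose by 1.05. In the defence and jasmonate list, 4 of 9 tested genes were higher and 2 were lower, against the same backgrounds. WRKY70, a regulator of salicylic acid responses, rose from 2.43, 2.89 and 2.99 RPKM to 5.84, 10.7 and 6.79 RPKM (log2 fold change 1.19, adjusted p = 0.00023). JAZ1, a repressor of jasmonate signalling, rose by 0.60, and PAD3, which makes camalexin, fell by 0.55, a call lost without Col-0 replicate 3 or chl1-5 replicate 1. The 2 lower calls became 0 without either of these and 1 without Col-0 replicate 1 or chl1-5 replicate 3. In the sulfate list, 2 of 11 tested genes were higher and 2 were lower, against backgrounds of 16.6% and 11.7%. The 2 higher became 1, with the call of APR1 lost, without any one of Col-0 replicates 1 and 3 and chl1-5 replicates 1 and 2. The uptake transporter SULTR1;2 fell from 64.6 ± 2.63 to 48.4 ± 4.32 RPKM, and SULTR2;1 rose from 0.681 ± 0.0255 to 1.33 ± 0.219 RPKM (SD, n = 3 each).

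HY5 itself did not pass the test at 21 °C. It was at 27.04, 24.3 and 24.1 RPKM in Col-0 and at 19.7, 22.1 and 21.5 RPKM in chl1-5 (log2 fold change -0.24, adjusted p = 0.058). The groups did not overlap, and the difference passed the threshold under quantile normalization (-0.24), rescaling by the median of ratios (-0.26), the fit on the 6 libraries alone (-0.24) and voom on reads (-0.26). Of the 13 light regulators tested, 1 was higher (7.69%, under the 16.6% of all genes tested), the B-box protein BBX21 (84.4 ± 1.68 and 105.2 ± 3.72 RPKM, SD, n = 3 each). Without Col-0 replicate 1, 2 were higher, and without Col-0 replicate 3, 1 was lower. Clock, heat, flavonoid and hypoxia lists had 3 of 18, 0 of 9, 1 of 8 and 2 of 9 tested genes higher and 0, 1, 0 and 0 lower. The shares higher were 16.7%, 0%, 12.5% and 22.2%, beside 16.6% of all genes tested. The clock count of 3 was 1 without Col-0 replicate 2, chl1-5 replicate 1 or chl1-5 replicate 3. That of flavonoids was 0 without any one of Col-0 replicates 1 and 2 and chl1-5 replicates 2 and 3, and that of hypoxia was 1 without chl1-5 replicate 1.

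Markers of other tissues were counted in the same libraries. Of 12 tested genes of photosynthesis, which are abundant in shoots, 4 were lower in chl1-5 roots (33.3%, beside 11.7% of all genes tested) and none was higher, with a median log2 fold change of -0.42. RCA, the activase of Rubisco, was at 21.4, 23.5 and 16.6 RPKM in Col-0 and at 10.7, 14.3 and 13.4 RPKM in chl1-5. The count of 4 was 1 without Col-0 replicate 1 or chl1-5 replicate 1 and 2 without Col-0 replicate 2. The sum of 16 such markers was 268 to 338 RPKM in Col-0 and 190 to 257 RPKM in chl1-5, and 1 of them was at 0 in a chl1-5 library. Among the markers too low to test, RBCS2B, LHCB1.1 and CA1 were highest in Col-0 replicate 2, at 2.42, 3.3999 and 0.632 RPKM. Of the markers of root hairs, 0 of 8 were called, with sums of 181 to 232 RPKM in Col-0 and 225 to 278 RPKM in chl1-5. In the root tip and the vascular lists, 1 of 9 and 1 of 7 were lower (11.1% and 14.3%, near the 11.7% of all genes tested), none was higher, and the root markers were above 0 in each library. The root tip count was 0 without any one of Col-0 replicates 2 and 3 and chl1-5 replicates 1 and 2, and the vascular count was 0 without Col-0 replicate 2. Fewer cells of a type and less RNA per cell cannot be told apart in these pools, and the part of such markers in the other lists was not tested.

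**Figure D4:**
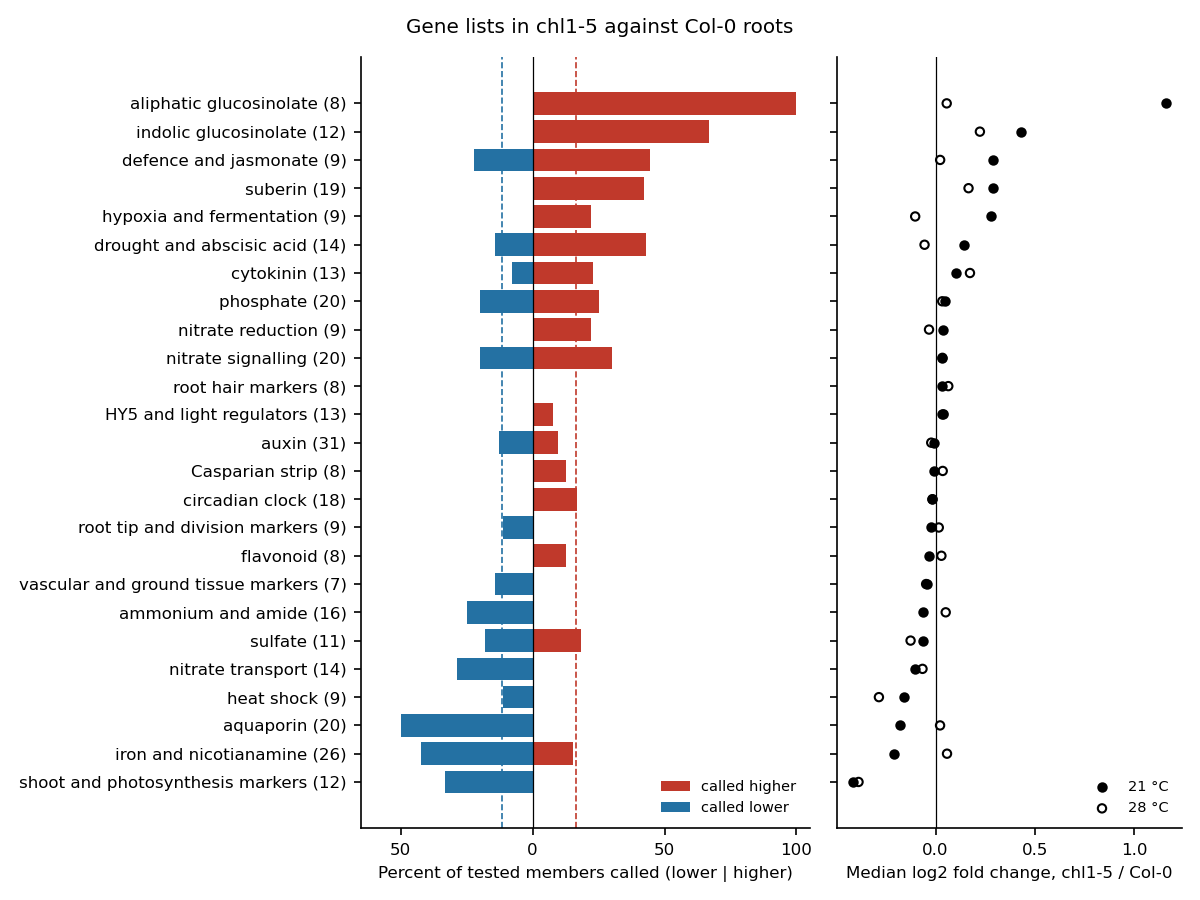
For each gene list, the percent of tested members called higher (red, to the right) or lower (blue, to the left) in chl1-5 roots at 21 °C (left panel), with dashed lines at the 16.6% and 11.7% of all genes tested, and the median log2 fold change at 21 °C (filled) and 28 °C (open) in the right panel. Numbers of tested genes stand in brackets. Aliphatic glucosinolate genes lie at 1.16 at 21 °C and at 0.06 at 28 °C. Aquaporin and iron genes lie at -0.18 and -0.21 at 21 °C and at 0.02 and 0.06 at 28 °C, where the median of all genes tested was 0.02.

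Whether the differences at 21 °C returned in other libraries was examined in roots at 28 °C. There, 1673 genes were called (9.43%), 1185 higher and 488 lower, and 957 of them were called in the same direction at 21 °C, which is 57.2% of the calls at 28 °C and 19.1% of those at 21 °C. Of the 2941 genes called higher at 21 °C, 87.5% kept their sign at 28 °C and 23.6% were called higher there, beside 6.68% of all genes tested. Over all genes tested, 69.7% had the same sign at both temperatures. Of the 2080 genes called lower, 79.4% kept their sign and 12.6% were called lower, beside 2.75% of all genes tested. Both sets of calls used the same SE per gene from a single fit, so a gene with a small SE passed more easily at both temperatures. The part of this in the excess over all genes tested was not tested. Fitted on the 6 libraries at 28 °C alone, 146 genes were called there. The count at 28 °C was 877 and 883 without Col-0 replicate 1 or 2, and 1017 and 607 without chl1-5 replicate 1 or 3. The genotype effect differed between temperatures for 417 genes (2.35%), a count that fell to 206 without Col-0 replicate 2 at 21 °C, 251 without Col-0 replicate 1 and 276 and 274 without chl1-5 replicates 2 and 3 at 21 °C, and 213 without chl1-5 replicate 3 at 28 °C. Of the 381 of these that were called at 21 °C, 369 had a smaller effect at 28 °C, although these genes share the 21 °C libraries with the call that chose them. Seen from the other side, the 1673 genes called at 28 °C had a median size of 0.22 there and of 0.17 at 21 °C.

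For the aliphatic glucosinolate genes, the median log2 fold change was 0.06 at 28 °C. None of the 8 was called there, beside 9.43% of all genes tested. The effect differed between temperatures for 7 of them, beside 2.35% of all genes tested. BCAT4 was at 0.455 ± 0.210 RPKM in Col-0 and 0.613 ± 0.216 RPKM in chl1-5 at 28 °C (SD, n = 3 each), and the difference between its effects was -1.69 (limma adjusted p = 0.00041). ALMT1 was at 0.163 ± 0.102 and 0.283 ± 0.0110 RPKM at 28 °C (SD, n = 3 each), a level far under that at 21 °C in both genotypes. BT2 was at 75.4 ± 4.43 and 69.1 ± 6.84 RPKM, and FRO2 at 14.2 ± 2.51 and 14.9 ± 1.39 RPKM (SD, n = 3 each), with log2 fold changes of -0.13 and 0.07. No aquaporin was called at 28 °C in either direction, beside 6.68% higher and 2.75% lower of all genes tested. At such shares, a lack of calls in lists this short says little. The effect differed between temperatures for 4 of 20, beside 2.35% of all genes tested.

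Some genes were called in the same direction at 28 °C. AT1G75945 was at 3.48 and 15.1 RPKM in Col-0 and chl1-5 roots at 28 °C, a log2 fold change of 1.88 (adjusted p = 1.6e-05) beside 1.84 at 21 °C. In shoots at 21 °C, it was at 3.43 and 17.1 RPKM. AT4G39795 was higher by 1.23 at 28 °C (adjusted p = 0.00062). GH3.2 was lower by 0.62 at 28 °C (adjusted p = 0.0033), and NRT1.8 by 1.06 (adjusted p = 0.015). ARR5 was higher by 0.68 (adjusted p = 0.040).

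**Figure D5:**
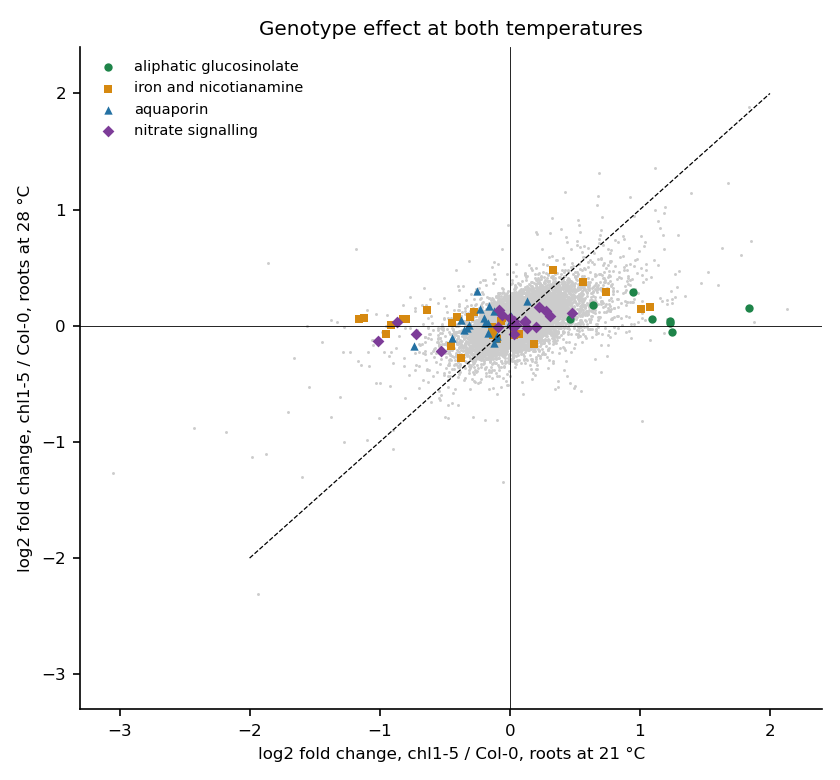
Log2 fold change of chl1-5 over Col-0 in roots at 21 °C (x axis) and at 28 °C (y axis) for the genes tested apart from NRT1.1 and ELP (grey points), with members of 4 lists in colour and a dashed line where both are equal. The aliphatic glucosinolate genes (green circles) lie between 0.46 and 1.84 on the x axis. On the y axis, their median is 0.06, with SOT17 at 0.29 and SOT18 at 0.18.

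In shoots at 21 °C, 6390 of the same genes were called between the libraries labelled chl1-5 and Col-0 (36%), with 13.7% of the genes tested higher and 22.3% lower. Of the genes called higher in roots, 66.0% had the same sign in shoots, and of those called lower 72.2%. The share over all genes tested was not computed for this pair. Of the genes called higher in roots, 21.7% were called higher in shoots too, and 191 were called lower there. For those called lower in roots, 43.9% were called lower in shoots and 167 were called higher. The fit for shoots also took its spread from the root libraries, so these calls share part of their SE with those in roots. The aliphatic glucosinolate list had a median of -0.005 in shoots, with 1 of 8 genes higher. In the iron list, 10 of 26 genes were lower in shoots and 1 was higher. BHLH39 stood at 3.22 RPKM in Col-0 shoots and 0.956 RPKM in chl1-5 shoots. The genotype effect differed between organs for 5396 genes (30.4%).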

How the data were processed

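RNA-seq of 36 libraries was available, and the comparison used the 6 root libraries of chl1-5 and Col-0 at 21 °C, grouped by their labels. Per the submitters' processing notes, the authors used STAR 2.7.0a, edgeR 3.36.0 and the genome build TAIR10, and the deposited values are RPKM. The counting tool and the annotation release are not given in the sources used here. With gene lengths of TAIR10.1 (5 genes were given another length from their values), 100% of the values above 0 became whole reads within a tolerance of 0.001. These reads gave depth, floors and 1 alternative, and intervals cover counting error only.

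log2(RPKM + 1) of the 18 root libraries was modelled by limma 3.58.1 (R 4.3.3) with 6 group means and an eBayes trend, keeping genes whose mean over these libraries reached 1 RPKM. Tests were two-sided and adjusted by the Benjamini-Hochberg method. Shoots were tested within all 36 libraries. The procedure was tested on simulated data. Figures were drawn with matplotlib 3.10.9 in Python 3.11.15.

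The members follow from the labels, but this comparison was proposed, and the 25 gene lists and the rules were chosen, with earlier results of these data known. Named were NRT1.1 with 5 neighbours on each side, the 12 largest changes in each direction among called genes averaging 5 RPKM or more without overlap, up to 5 called members of each list, any member of the nitrogen and phosphate lists, HY5, and genes that the study measured by qPCR. Exceptions are marked. Some names, among them HHO2 and HHO3, had no identifier in the reference and were left out. As alternatives, pseudocounts (0.1, 0.5), the filter (none, 5 RPKM), the scaling (median of ratios, quantile), the trend, the libraries in the fit, a replicate block, and voom with TMM on reads were varied one at a time, and each replicate was left out. Promoter motifs were not analysed here.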

Additional observations from a re-analysis of the deposited data

Results flagged for a closer look

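The effect of chl1-5 was tested for a difference between 28 °C and 21 °C in roots, as the interaction term of the limma fit, and 417 genes passed. The values below are the effect at 28 °C minus that at 21 °C on the log2 scale.

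Among genes called higher at 21 °C, the difference was -1.99 for ALMT1, -1.25 for CHX17, -1.06 for DUR3, -0.83 for CB5-C and -1.02 for XTH24. CHX17 was at 0.405 ± 0.152 RPKM in Col-0 and 0.793 ± 0.270 RPKM in chl1-5 at 28 °C (SD, n = 3 each). It was still called higher there (log2 fold change 0.35, limma adjusted p = 0.044), on a scale that understates changes at such low levels. In the aliphatic glucosinolate list, it was -1.69 for BCAT4, -1.298 for MAM1, -1.21 for MAM3, -1.19 for CYP83A1, -1.03 for CYP79F2, -0.66 for SOT17 and -0.46 for SOT18. It was -1.18 for HB-7, -1.25 for WRKY70, -0.51 for JAZ1, -0.92 for FER1, -0.36 for CBL9 and -0.34 for UPM1.

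Among genes called lower at 21 °C, the difference was 1.78 for AT5G33355, 1.54 for AT3G59930, 1.27 for OSM34, 0.85 for AT5G35940, 0.96 for AT2G22122 and 1.38 for AT4G39675. It was 1.56 for ERD5, 1.303 for MIOX2, 1.42 for GAT1_2.1, 1.26 for DIN10 and 1.00 for BOR1. For genes of nitrogen metabolism and signalling, it was 2.399 for ASN1, 0.90 for BT1, 0.89 for BT2, 0.65 for LBD39 and 0.52 for IPT3. For iron genes, it was 1.19 for FRO2, 1.22 for CYP82C4 and 0.88 for NAS4. For aquaporins, it was 0.43 for PIP1;3, 0.34 for PIP2;1 and 0.56 for PIP2;3. These genes were picked from the 21 °C libraries that also enter the difference.

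For NRT1.1, the difference was 2.48, beside a Col-0 level of 10.3 to 14.3 RPKM at 28 °C and at most 4 reads in any chl1-5 root library. The Col-0 level at 21 °C was 70.9 to 78.2 RPKM, so this difference restates the change of Col-0 between temperatures.

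Between shoots and roots at 21 °C, 5396 genes differed in their effect. The effect in shoots minus that in roots was 5.88 for NRT1.1 and -1.78 for ELP. ELP had at most 4 reads in any chl1-5 library at 21 °C in either organ. Its difference thus restates the Col-0 levels, with means of 545 RPKM in shoots and 154 RPKM in roots, and not a different loss in chl1-5.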

How the results depend on the processing

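The 5021 calls at 21 °C became 3953 to 5332 under the alternatives and 3232 to 4393 with 1 of the 6 libraries left out, lowest without chl1-5 replicate 1. Of them, 58.6% were higher, against 43.3% with quantile normalization. The 99 calls past a log2 fold change of 1 became 189 with a pseudocount of 0.1 and 192 with voom on reads, and 87 to 116 with a library left out. The 1673 calls at 28 °C became 146, and the 417 for the difference between temperatures 238, when fitted on the compared libraries only. With a library left out, these counts were 607 to 1829 and 206 to 515, and those for shoots and for the difference between organs 5204 to 5618 and 4431 to 5244. PYK10 had a log2 fold change of 0.47, which reversed to -0.0481 with quantile normalization.

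Of 123 called genes among the 131 named and tested, 102 kept direction and call under each of the 10 alternatives that leave no library out, and 35 lost the call when a replicate was left out. Same-numbered replicates of the 2 genotypes deviated with correlations of -0.407, -0.0358 and -0.0475. Those of differently numbered replicates ranged from -0.409 to 0.450. With 3 libraries per group, these values cannot decide whether samples were paired or shared a batch. With the replicate block, 4876 genes were called at 21 °C and 336 for the difference between temperatures. Genes averaging under 1 RPKM over the 18 root libraries were not tested. That filter, not depth, left out NRT2.1, which averaged 0.710 RPKM over them.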
